A study of Rattus norvegicus with 32 samples.

Results

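Transcripts of 9 lymphocyte marker genes were followed through 32 RNA-seq libraries of rat liver sinusoidal endothelial cells (LSECs), the fenestrated endothelium that lines the hepatic sinusoids. The genes were matched by symbol, and the list was chosen with earlier results of these data known. They are 9 of the 32623 genes in the deposited tables: Ptprc, Cd3d, Cd3e, Cd8a, Cd4, Cd79a, Ms4a1, Nkg7 and Gzmb. In the CCl4 model, LSECs came from male Wistar Han rats of which 6 were untreated (healthy), and the others inhaled the hepatotoxin carbon tetrachloride, 5 rats over 2 weeks, 5 over 6 weeks and 6 over 12 to 14 weeks (cirrhosis). Phenobarbital was given in the drinking water in this model, and whether healthy rats drank it is not given in the sources used here. A thioacetamide (TAA) experiment added 10 libraries, 5 labelled "control" and 5 labelled "TAA control". The study describes healthy and TAA-cirrhotic Sprague-Dawley rats there, while the labels give Wistar Han throughout and do not settle which group received TAA, so that the groups are called by their labels and no direction of treatment is given. Cells were enriched after liver perfusion and digestion by centrifugation on an iodixanol density gradient, with no sort on a surface antigen named in the labels, and each library is bulk RNA of such a preparation.

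The liver sinusoid is home to many lymphocytes, among them natural killer (NK) cells and T cells that patrol along the LSEC surface. Ptprc encodes CD45, the tyrosine phosphatase carried by nearly all leukocytes. Cd3d and Cd3e encode chains of the CD3 complex that signals for the T cell receptor, and Cd8a and Cd4 encode the coreceptors that bind MHC class I and class II. In the rat neither coreceptor is limited to T cells, because NK cells carry CD8 alpha and monocytes and macrophages carry CD4. Cd79a encodes a signalling chain of the B cell receptor and Ms4a1 the B cell surface protein CD20. Nkg7 and Gzmb encode a granule membrane protein and the protease granzyme B of NK cells and cytotoxic T cells.

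Promoter letters are shown for Cd3d and Cd3e, which lie side by side on chromosome 8 with Cd3g, and for Nkg7 and Gzmb, because the levels of these pairs are set against each other in the results. RefSeq (build GRCr8, another build than the Rnor_6.0 to which the reads were mapped) gave a promoter for 7 of the 9 genes. The windows hold the 250 bases before the annotated start, 5′ to 3′ on the gene's strand, at chr8:54185269-54185518 (plus strand), chr8:54211771-54212020 (minus), chr1:102981247-102981496 (plus) and chr15:34462470-34462719 (minus). Capitals mark the ETS core AGGAAG, the RUNX core TGTGGT, the T-box core TCACAC and the TATA box TATAAA on either strand.
Cd3d: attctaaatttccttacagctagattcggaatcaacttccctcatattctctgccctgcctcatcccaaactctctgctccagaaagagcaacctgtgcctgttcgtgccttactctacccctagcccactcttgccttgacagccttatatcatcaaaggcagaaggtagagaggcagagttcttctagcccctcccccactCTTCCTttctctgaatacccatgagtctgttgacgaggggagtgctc
Cd3e: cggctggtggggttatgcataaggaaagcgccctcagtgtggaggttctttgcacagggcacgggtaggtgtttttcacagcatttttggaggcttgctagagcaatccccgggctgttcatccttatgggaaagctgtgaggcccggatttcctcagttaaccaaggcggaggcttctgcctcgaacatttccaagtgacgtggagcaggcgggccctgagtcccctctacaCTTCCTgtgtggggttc
Nkg7: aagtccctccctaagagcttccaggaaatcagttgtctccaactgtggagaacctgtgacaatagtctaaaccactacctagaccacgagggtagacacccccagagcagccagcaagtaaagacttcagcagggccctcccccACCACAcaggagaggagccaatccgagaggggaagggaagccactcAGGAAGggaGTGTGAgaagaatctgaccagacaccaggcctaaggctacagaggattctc
Gzmb: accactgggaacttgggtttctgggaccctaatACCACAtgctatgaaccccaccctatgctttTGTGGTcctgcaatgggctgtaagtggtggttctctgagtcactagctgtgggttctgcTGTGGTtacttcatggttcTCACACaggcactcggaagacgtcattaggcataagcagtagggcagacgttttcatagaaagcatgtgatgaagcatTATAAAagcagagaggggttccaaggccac
The ETS core was present in 5 of the 7 promoters (Ptprc, Cd3d, Cd3e, Cd79a and Nkg7) and in 29.5% of all 33469 promoters of that length. It began 47 bases before the start of Cd3d and 17 bases before that of Cd3e. The RUNX core was held by Nkg7 and Gzmb, with 3 copies in Gzmb, and by 14.5% of all promoters. The T-box core was also held by Nkg7 and Gzmb and by 11.6% of all promoters, and the TATA box by Gzmb alone of the 7 and by 12.9% of all. The E-box CAGCTG, searched as well, was in none of the 7 and in 12% of all promoters. The motifs searched do not overlap in these windows, and a match describes letters only.

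Totals per library ranged from 25646531 to 46464289 expected counts, and levels are given as CPM, the counts relative to each library's total scaled with TMM factors. LSEC markers were present in every group, but at 2 and 6 weeks they were far lower than in the other groups. Stab2, the hyaluronan scavenger receptor of LSECs, lay between 1464 and 4919 CPM in healthy libraries, between 90.1 and 279 CPM at 2 and 6 weeks, and between 2756 and 4157 CPM at cirrhosis. The summed CPM of 12 LSEC markers was 26082 ± 5968 (SD, n = 6) in healthy libraries, 4751 ± 280 (SD, n = 5) at 2 weeks, 3708 ± 429 (SD, n = 5) at 6 weeks and 20908 ± 1717 (SD, n = 6) at cirrhosis. No sequencing batch is named in the labels, and one that follows the groups cannot be told apart from them. Relative to library size alone, TMM lowered the median log2 fold change of all genes by 0.41 at 2 weeks, 0.40 at 6 weeks and 0.34 at cirrhosis against healthy, and raised that of cirrhosis against 6 weeks by 0.11. Replicates 14 and 15 of the "TAA control" group were the most alike pair within any group (chi-square over genes divided by its degrees of freedom 2.96, next lowest 23.6). Sampling noise gives about 1 on this scale, so that both were kept, but the value does not show that they are separate rats, and n = 5 for this group may count 1 rat more than once. With the pair averaged as 1 library, Ptprc, Cd8a, Nkg7 and Gzmb kept their calls in the TAA experiment and Cd4 lost its call.

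At 2 and 6 weeks of CCl4, transcripts of B cell, cytotoxic and coreceptor genes were far below healthy levels, while Ptprc was not called different. A gene was called with an unadjusted limma p under 0.05 and a fold-change above 1.5, the study's thresholds, and adjusted p-values are Benjamini-Hochberg values over all genes tested. At 2 weeks, 7 of the 9 genes had enough counts for the test, of which 6 fell (Cd3e, Cd8a, Cd4, Cd79a, Nkg7 and Gzmb) and none rose. Against the same healthy libraries 74.1% of all genes tested were called, 35.8% as higher and 38.3% as lower, so that a call by itself is common in this comparison. The median log2 fold change of the 7 genes was -5.05, and that of all genes -0.09. In 6 of the 9 genes every 2-week library was below every healthy one, a separation seen in either direction in 60.4% of all genes tested.

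At 6 weeks, 5 of 7 tested genes fell (Cd8a, Cd4, Cd79a, Nkg7 and Gzmb), and Ptprc and Cd3e were not called. The share of all genes called was 71.2%, with 35.8% higher and 35.4% lower. The median log2 fold change was -3.79 for the 7 genes and -0.03 for all genes. Cd4, Cd79a and Gzmb did not overlap between the groups, as did 59% of all genes tested. The calls at 2 and 6 weeks had adjusted p-values of at most 0.00710 from limma. In bulk RNA, fewer lymphocytes and less RNA per lymphocyte cannot be told apart, and every CPM is also a share of all transcripts of the preparation.

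**Figure D1:**
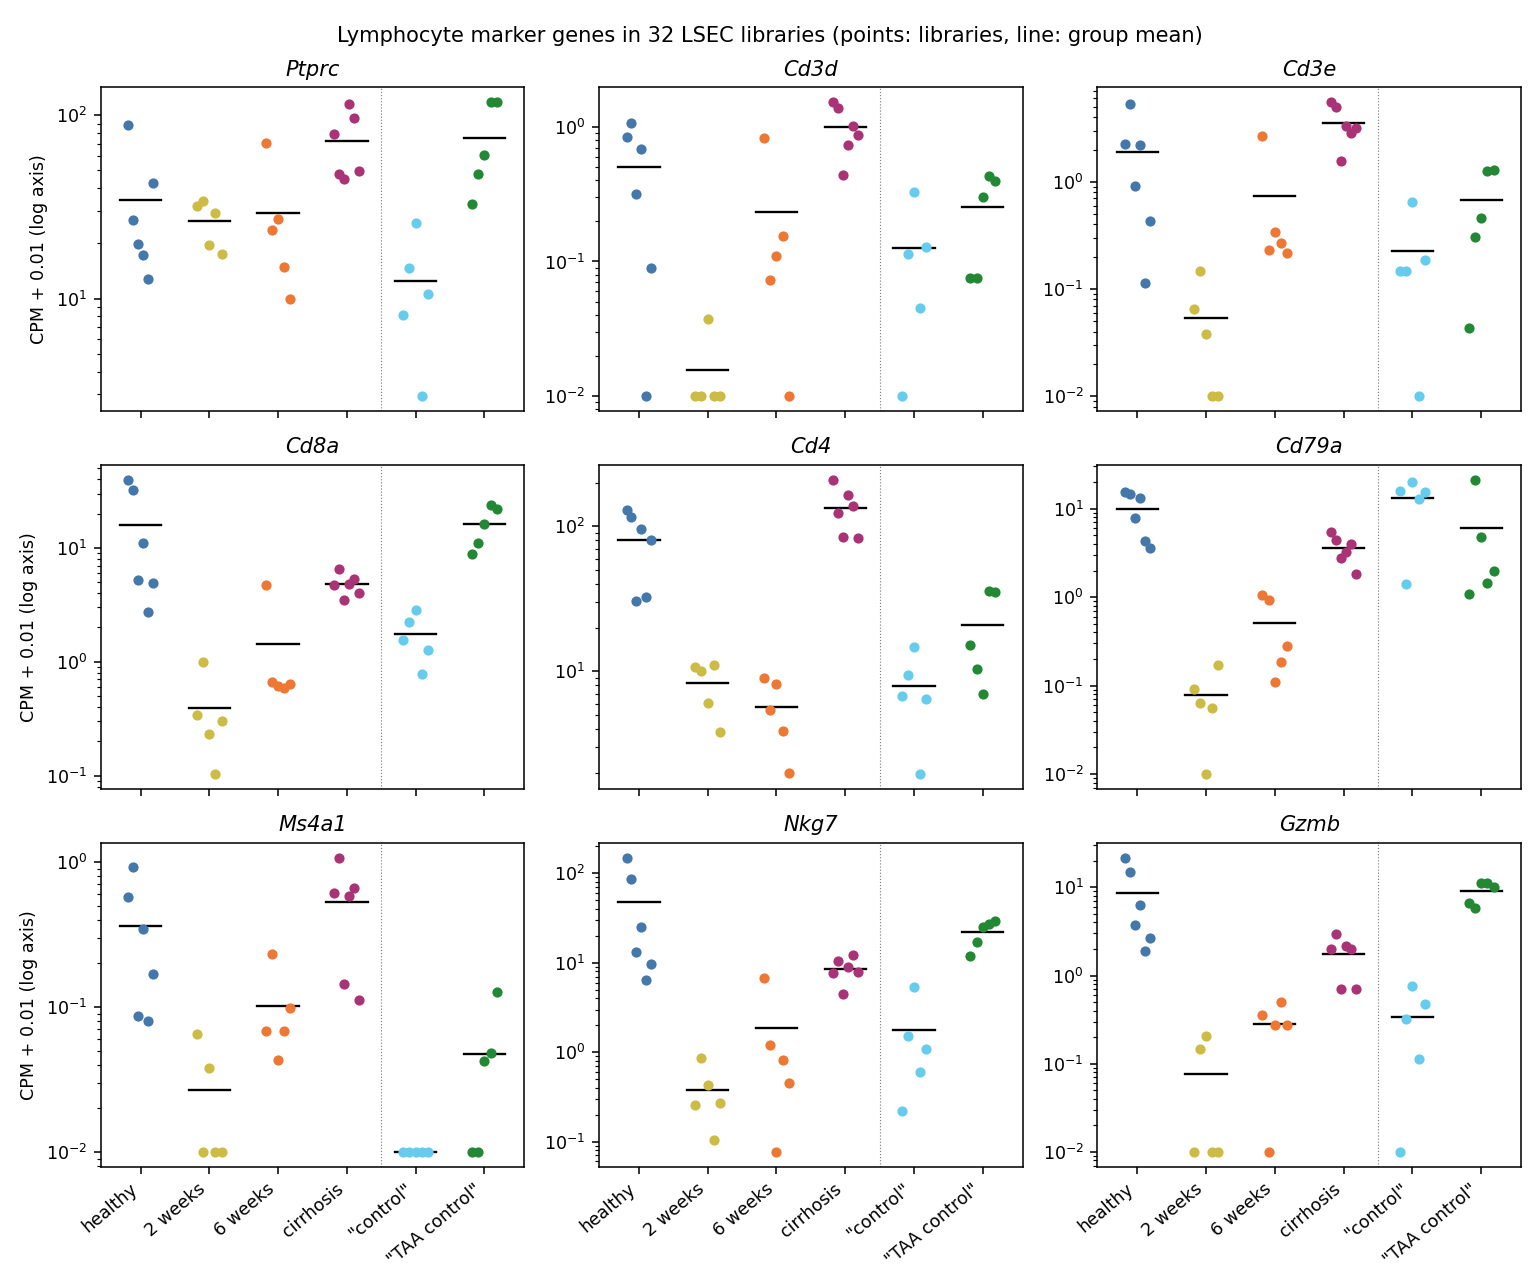
Level of each gene in every library, as CPM plus 0.01 on a log axis, with 1 point per library and a line at the group mean; the dotted line divides the CCl4 model from the TAA experiment. Except for Ptprc, the 2-week libraries are the lowest of the 4 CCl4 groups or close to the 6-week libraries, and 1 library of the 6-week group (replicate 12) lies above the other 4 in Ptprc, Cd3d, Cd3e, Cd8a and Nkg7.

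At cirrhosis the genes went in different directions against healthy libraries. Ptprc, Cd3d and Cd3e were called higher, Cd79a, Nkg7 and Gzmb were called lower, and Cd8a, Cd4 and Ms4a1 were not called, with all 9 tested. Of all genes tested, 54.5% were called, 28.8% as higher and 25.7% as lower, and 27.7% did not overlap between the groups, whereas all 9 genes overlapped. The calls are not equally firm. With adjusted p-values in limma, which called 51.8% of all genes tested (27.1% higher and 24.7% lower), Ptprc remained called as higher and Cd79a and Gzmb as lower. Cd3d, Cd3e and Nkg7 had adjusted p-values of 0.0714, 0.0595 and 0.0555. Healthy replicates 1 and 2 were the highest in Nkg7, Cd8a, Gzmb and Cd79a. Without this pair, a check chosen after the values were seen, Ptprc, Cd3d, Cd3e and Cd4 were called higher (log2 fold changes 1.58, 2.74, 2.50 and 1.16) and Cd79a and Gzmb lower, while Nkg7 was not called.

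Compared with 6 weeks, all 8 genes tested were higher at cirrhosis (Ms4a1 had too few counts), with a median log2 fold change of 2.98 against 0.04 over all genes. In that comparison 64.2% of all genes tested were called, 34.5% as higher and 29.7% as lower. Cd4, Cd79a and Gzmb did not overlap between the groups, as did 62.9% of all genes tested. Compared with 2 weeks, the same 8 genes were again all higher, where 69.7% of all genes were called, 37.8% as higher and 31.9% as lower. All 9 genes lay higher in every cirrhotic than in every 2-week library, a separation in either direction that 65.4% of all genes tested showed. These comparisons share the cirrhotic libraries. Between 6 and 2 weeks 4 genes could be tested and Cd8a alone was called, as higher at 6 weeks (log2 fold change 1.75, adjusted p = 0.119 from limma), where 15.7% of all genes tested were called, 14.3% as higher and 1.39% as lower. That call was lost without any 1 of replicates 1, 3, 4 and 8 of the 2-week group, and the fold change was 1.15 without replicate 12 of the 6-week group. Every 6-week library exceeded every 2-week library in Cd3e, which had too few counts for the test there. A separation in either direction was seen in 17% of all genes tested.

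**Figure D2:**
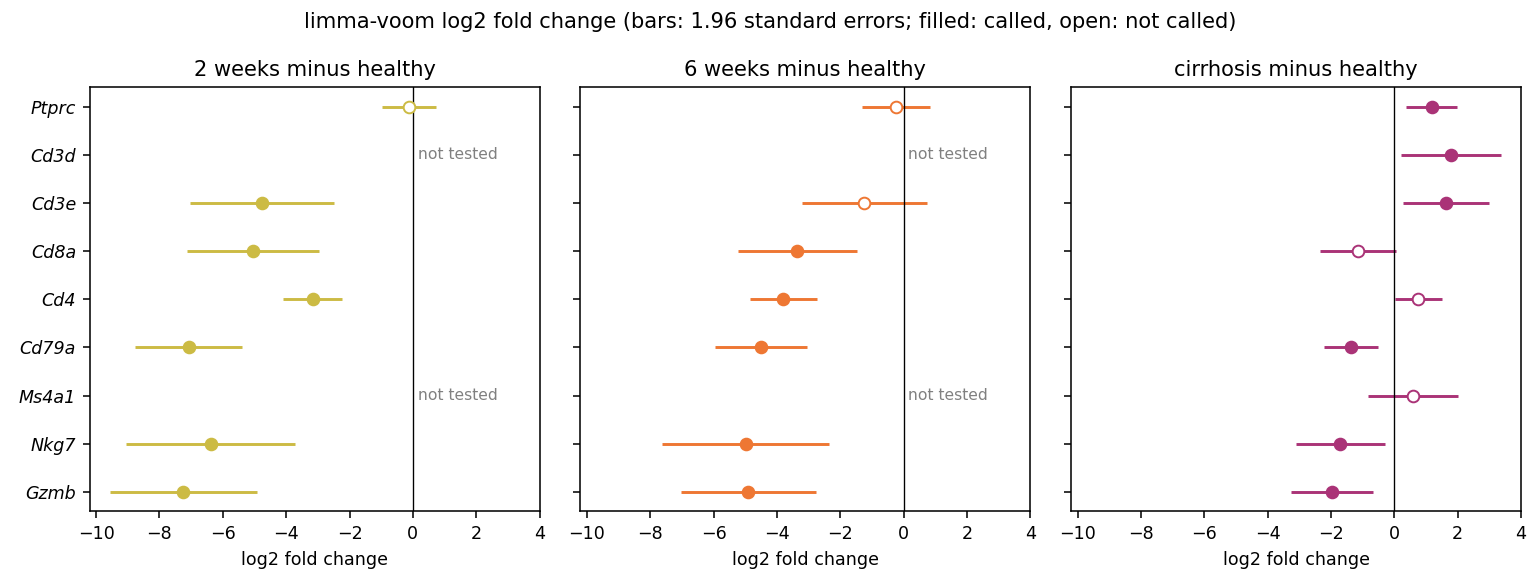
limma-voom log2 fold change of each gene at 2 weeks, 6 weeks and cirrhosis against healthy LSECs, with bars of 1.96 standard errors; filled points were called at the unadjusted threshold, open points were not, and genes with too few counts are marked as not tested. At cirrhosis Ptprc, Cd3d and Cd3e lie to the right of 0 and Cd79a, Nkg7 and Gzmb to the left.

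Ptprc (ENSRNOG00000000655), the marker shared by leukocytes, was the gene least changed at the early stages. It lay between 12.8 and 87.9 CPM in healthy libraries (median 23.3, mean 34.5 ± 28.1, SD, n = 6) and between 44.6 and 115 CPM at cirrhosis (median 64.2, mean 72.1 ± 29.4, SD, n = 6). The 2-week libraries had 31.8, 33.8, 19.7, 29.5 and 17.4 CPM, and the 6-week libraries 70.6, 23.7, 27.3, 14.8 and 9.97 CPM. The early groups thus lay within the healthy range apart from a single 6-week library at 9.97 CPM, and the cirrhotic libraries overlapped the healthy ones through healthy replicate 1, the highest. Against healthy libraries the log2 fold change was -0.13 at 2 weeks (95% interval -0.97 to 0.71) and -0.24 at 6 weeks (-1.32 to 0.84), and both were positive with scaling by library size alone (0.28 and 0.16). At cirrhosis it was 1.18 (standard error 0.412, adjusted p = 0.0254 from limma). With edgeR's quasi-likelihood test it was 0.97 (adjusted p = 0.0694). Against 6 weeks, Ptprc was higher at cirrhosis by 1.48 on the log2 scale (adjusted p = 0.00836 from limma).

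Most other leukocyte genes fell at the early stages. Of 27 shared leukocyte genes, 26 were tested against healthy libraries, of which 20 fell and none rose at 2 weeks and likewise at 6 weeks (median log2 fold change -2.49 and -2.44). Among the 4 most abundant, Laptm5, a lysosomal protein of leukocytes, and Itgb2, the beta chain of leukocyte integrins, fell at both times. Laptm5 was at 259 ± 236 CPM in healthy libraries (SD, n = 6) and 27.9 ± 8.51 CPM at 2 weeks (SD, n = 5), a log2 fold change of -2.77 (adjusted p = 0.00092 from limma). Lcp1, an actin bundling protein, and Cd48, a ligand of NK and T cell receptors, were not called at 2 weeks (log2 fold changes -0.14 and 0.66). At cirrhosis 4 of the 26 were called higher (among them Cd53, Cd48 and Evi2b), Coro1a lower and 21 neither, with a median log2 fold change of -0.02 beside 0.07 over all genes. The shares of all genes tested that fell were 38.3% at 2 weeks and 35.4% at 6 weeks, and 28.8% were higher at cirrhosis.

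The CD3 genes were scarce in every group. Cd3e (ENSRNOG00000016069) lay between 0.104 and 5.34 CPM in healthy libraries (median 1.56), which corresponds to 3 to 158 estimated reads. The 2-week libraries had 0.0549, 0.136, 0.0277, 0 and 0 CPM, 8 reads in all. The 6-week libraries had 2.66 CPM in replicate 12 and 0.22, 0.334, 0.26 and 0.208 CPM in the others. Replicate 12 thus held more Cd3e than the other 6-week libraries together, and 2-week libraries held almost none. At cirrhosis all 6 libraries lay between 1.54 and 5.55 CPM (median 3.25). Cd3e differed from healthy by -4.76 on the log2 scale at 2 weeks (standard error 1.16, adjusted p = 0.00238 from limma). The log2 fold change was -1.24 at 6 weeks (95% interval -3.21 to 0.73), and -1.91 without replicate 12. Without healthy replicate 5 it was -1.87 and called (adjusted p = 0.0570 from limma), and it did not pass the threshold without replicate 12 (adjusted p = 0.127).

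Cd3d (ENSRNOG00000015994) followed Cd3e at a lower level. It was at 0.489 ± 0.426 CPM in healthy libraries (SD, n = 6), with no read in replicate 5 and up to 31 in replicate 2, and the 6 cirrhotic libraries had 0.985 ± 0.408 CPM. The 5 libraries at 2 weeks held 1 read against 85 in the healthy group. Scaled to depth, the healthy level was 86.8-fold the 2-week level, with a 95% interval from 15.2 to 3468 that covers counting error only. At 6 weeks, replicate 12 held 28 of the 38 reads. At cirrhosis the log2 fold change against healthy was 1.78 for Cd3d (standard error 0.803) and 1.62 for Cd3e (standard error 0.693), both with overlap of the groups. Both were lower with edgeR, at 0.90 and 0.82 (adjusted p = 0.268 and 0.297). The call of Cd3d was lost in 8 of 12 fits that left out 1 library, with values from 1.01 to 2.20, and that of Cd3e in 7 of 12, with values from 0.997 to 2.10. The lowest values, 1.01 and 0.997, came without healthy replicate 5, and both calls were also lost without healthy replicate 3 or 6 or cirrhosis replicate 1, 2, 4 or 6, and for Cd3d without cirrhosis replicate 5. Against 6 weeks, Cd3d was higher at cirrhosis by 2.98 and Cd3e by 2.90 on the log2 scale (adjusted p = 0.00312 and 0.000975 from limma).

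Among 26 further T cell genes, 24 are in the tables. At cirrhosis 23 of them could be tested against healthy libraries, of which 8 were called higher, 2 lower and 13 neither (7 higher and 2 lower with adjusted p-values), with a median log2 fold change of 0.47. The higher genes were Cd3g, another CD3 chain, the costimulatory receptors Cd27 and Cd28, the transcription factors Lef1, Bcl11b, Foxp3 and Gata3, and the adaptor Trat1. The lower genes included Lck, the kinase that starts T cell receptor signalling. Lck was at 80.9 ± 30.9 CPM in healthy libraries (SD, n = 6), 3.16 ± 1.26 CPM at 2 weeks (SD, n = 5) and 37.0 ± 5.32 CPM in cirrhotic ones (SD, n = 6), a log2 fold change of -1.15 at cirrhosis (adjusted p = 0.00180 from limma). Cd28 went the other way at the early stages, from 3.20 ± 1.12 CPM in healthy libraries (SD, n = 6) to 8.74 ± 3.15 at 2 weeks and 15.7 ± 3.20 at 6 weeks (SD, n = 5), and was the single T cell gene called higher at 2 weeks (log2 fold change 1.41, adjusted p = 0.0008 from limma). At 2 weeks 12 of 17 tested T cell genes fell (median log2 fold change -3.08), and at 6 weeks 5 of 20 fell and 1 rose (median -0.93). Lat, an adaptor of T cell receptor signalling, fell at both times (log2 fold changes -2.25 and -0.83), and Ccr7, the receptor that guides lymphocytes and dendritic cells to lymph nodes, at 2 weeks (-3.33). Of all genes tested, 38.3% fell at 2 weeks, 35.4% fell at 6 weeks and 28.8% were called higher at cirrhosis. The number of T cell genes that fell at 6 weeks was thus below that share, and the number higher at cirrhosis near it.

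The coreceptor genes split between the early and late stages. Cd8a (ENSRNOG00000007178) had 39.6, 32.4, 5.17, 10.9, 2.75 and 4.89 CPM in healthy libraries 1 to 6, so that replicates 1 and 2 stood above the other 4. All 6 cirrhotic libraries lay between 3.48 and 6.48 CPM (median 4.76). The 2-week libraries had 0.33, 0.979, 0.222, 0.0931 and 0.291 CPM, and the 6-week libraries 4.71 CPM in replicate 12 and between 0.577 and 0.66 CPM in the others. The cirrhotic values lay inside the healthy range and above every 2-week value. Cd8a fell by 5.05 on the log2 scale at 2 weeks (standard error 1.06, adjusted p = 0.00085 from limma) and by 3.36 at 6 weeks (standard error 0.959, adjusted p = 0.00710). At cirrhosis the log2 fold change was -1.15 (95% interval -2.34 to 0.05), not called in limma, but -1.83 with edgeR (adjusted p = 0.0171) and -1.83 with DESeq2 (adjusted p = 0.00248). It was called without healthy replicate 5 (-1.53) or 6 (-1.41), and was -0.22 without healthy replicates 1 and 2.

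Cd4 (ENSRNOG00000016294) lay between 30.5 and 130.0 CPM in healthy libraries (median 88.7) and between 82.9 and 209 CPM at cirrhosis (median 131). The 2-week libraries had 10.8, 10.1, 6.02, 11.2 and 3.81 CPM, and the 6-week libraries 8.98, 5.41, 8.21, 3.89 and 1.99 CPM. Every library at 2 or 6 weeks was thus below every healthy and every cirrhotic one. Against healthy libraries Cd4 changed by -3.16 on the log2 scale at 2 weeks, -3.79 at 6 weeks (adjusted p = 6.88e-05 and 4.84e-05 from limma) and 0.76 at cirrhosis (95% interval 0.01 to 1.51, adjusted p = 0.105). The last was called with library-size scaling (1.10, adjusted p = 0.0261) and without healthy replicate 1 (0.93) or 2 (0.90). Cirrhosis exceeded 6 weeks by 4.61 on the log2 scale (adjusted p = 6.11e-07 from limma), the largest difference of the 8 genes in that comparison.

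Macrophage markers moved with Cd4, and so did LSEC markers. Of 14 Kupffer cell and macrophage genes, 13 of 13 tested fell at 2 weeks and 12 of 13 at 6 weeks, and all 14 were higher at cirrhosis than at 6 weeks. Their summed level ranged from 670 to 4620 CPM in healthy libraries, from 148 to 304 CPM at 2 weeks, from 67.7 to 331 CPM at 6 weeks and from 1484 to 4279 CPM at cirrhosis. Clec4f, the lectin that marks Kupffer cells, was at 485 ± 399 CPM in healthy libraries (SD, n = 6), 16.1 ± 8.68 at 2 weeks and 13.2 ± 12.9 at 6 weeks (SD, n = 5), and in cirrhotic libraries 423 ± 272 (SD, n = 6). The genes whose levels varied most like Cd4 within groups were Csf1r, Ly86 and Fcgr1a (Pearson r 0.948, 0.941 and 0.934 over 32 libraries, log2 CPM centred on group means). The course over the stages was not particular to macrophage genes. Of 12 LSEC genes tested, 10 fell at 2 weeks and 11 at 6 weeks, and 11 were higher at cirrhosis than at 6 weeks. The shares of all genes tested were 38.3% lower at 2 weeks, 35.4% lower at 6 weeks and 34.5% higher at cirrhosis than at 6 weeks. For Cd4 the part of macrophage transcripts in its changes was not tested.

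The cytotoxic genes fell at 2 and 6 weeks and were called lower at cirrhosis, with a wide spread among healthy libraries. Nkg7 (ENSRNOG00000017749) was at 149.7, 86.3, 13.2, 25.2, 6.37 and 9.72 CPM in healthy libraries 1 to 6. The cirrhotic libraries lay between 4.51 and 12.2 CPM (median 8.49). At 2 weeks the values were 0.247, 0.843, 0.416, 0.0931 and 0.258 CPM, and at 6 weeks 6.79, 1.2, 0.0668, 0.807 and 0.445 CPM. The cirrhotic libraries thus sat in the lower part of the healthy range, and 4 of the healthy libraries lay above the highest of them. For Nkg7 the log2 fold change against healthy was -6.39 at 2 weeks, -4.99 at 6 weeks (adjusted p = 0.000964 and 0.00506 from limma) and -1.70 at cirrhosis (standard error 0.715). At cirrhosis edgeR and DESeq2 gave -2.60 and -2.59 (adjusted p = 0.00753 and 0.000144). The limma call was lost in 6 of 12 fits that left out 1 library (cirrhosis 1, 3, 4 or 6, or healthy 1 or 2), with values from -2.12 to -1.18, and was -0.60 and not called without healthy replicates 1 and 2.

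Gzmb (ENSRNOG00000049976) repeated the pattern at a lower level. It had 21.7, 14.9, 3.69, 6.24, 1.88 and 2.65 CPM in healthy libraries 1 to 6 and between 0.685 and 2.92 CPM at cirrhosis (median 2.00). At 2 weeks 3 of 5 libraries held no read and the others 5 and 7, and at 6 weeks the values were 0.347, 0, 0.267, 0.49 and 0.267 CPM. Replicate 12, which stood apart in Cd3e, Cd8a and Nkg7, did not do so in Gzmb. For Gzmb it was -7.24 at 2 weeks, -4.90 at 6 weeks (adjusted p = 0.000121 and 0.00142 from limma) and -1.97 at cirrhosis (standard error 0.658, adjusted p = 0.0208). Without healthy replicates 1 and 2 the value at cirrhosis was -1.15, still called (adjusted p = 0.0700). Gzmb counts were not whole numbers in 26 of 32 libraries, so that RSEM divided reads that also matched another gene, and its values are less certain than those of Nkg7.

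Most other cytotoxic and NK cell genes were not called at cirrhosis. Of 28 genes, 26 are in the tables and 22 were tested, of which 6 were called lower, 2 higher and 14 neither, with a median log2 fold change of -0.24. The number lower is near the share of all genes called lower in this comparison (25.7%). The lower genes were Prf1, which encodes the pore-forming perforin, the granzymes Gzma and Gzmm, the transcription factor Tbx21 and the chemokines Xcl1 and Ccl5, all 6 also with adjusted p-values. The receptors Cd244 and Cd226 were the higher ones. Prf1 was at 68.3 ± 79.1 CPM in healthy and 11.2 ± 3.45 CPM in cirrhotic libraries (SD, n = 6), a log2 fold change of -1.88 (adjusted p = 0.0329 from limma). Ccl5 was at 232 ± 269 and 30.1 ± 8.90 CPM, a log2 fold change of -2.12 (adjusted p = 0.0211 from limma). Il2rb, the interleukin receptor chain of NK and T cells, and Klrb1a, an NK receptor, were not called at cirrhosis (-1.09 and -0.23). At 2 weeks 15 of 20 tested genes of this list fell and none rose (median -3.12), and at 6 weeks 11 of 21 fell and 1 rose (median -1.95). The shares of all genes tested that fell were 38.3% and 35.4%. The genes most like Nkg7 within groups were Il2rb, Prf1 and Sema4d (r = 0.962, 0.961 and 0.955 over 32 libraries), and those most like Gzmb were Runx3, Rnase6 and Gfi1 (0.889, 0.868 and 0.857).

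The reads of Nkg7 and Cd8a relative to those of Cd3e differed between healthy and cirrhotic libraries. Per read of Cd3e, Nkg7 had 67.0, 16.2, 14.5, 11.4, 61.0 and 23.1 reads in healthy libraries 1 to 6. In cirrhotic libraries it had between 1.37 and 4.32 reads (median 2.61). No cirrhotic library reached the lowest healthy one, and that did not rest on healthy replicates 1 and 2. Cd8a had between 4.97 and 26.3 reads per Cd3e read in healthy libraries and between 0.854 and 2.26 at cirrhosis, again without overlap. These ratios were formed after the values were seen, are given without a test, and concern these 3 genes. Lck, the most abundant gene of the T cell list, was lower at cirrhosis as Nkg7 was. Healthy replicate 5 held 3 reads of Cd3e, so that its ratio of 61.0 is imprecise. At 6 weeks Nkg7 had between 0.2 and 5.43 reads per Cd3e read. At 2 weeks 3 libraries with any Cd3e read gave between 4.5 and 15.

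**Figure D3:**
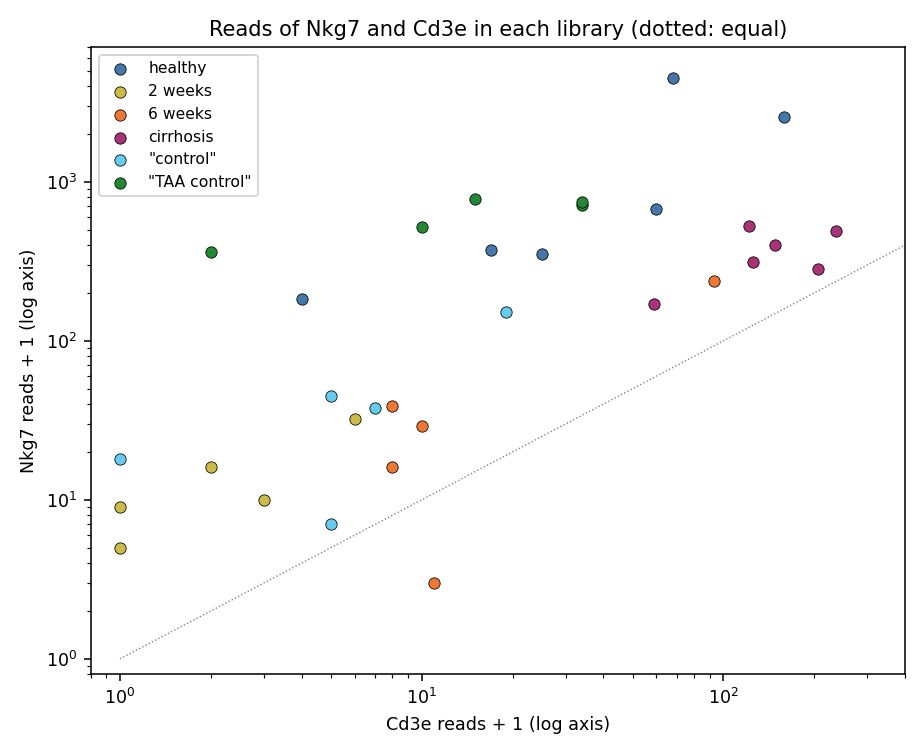
Estimated reads of Nkg7 against those of Cd3e in each of the 32 libraries, both plus 1 on log axes, coloured by group; the dotted line marks equal numbers. The 6 healthy and 5 "TAA control" libraries lie far above the line, with at least 11.4 reads of Nkg7 per Cd3e read, and the 6 cirrhotic libraries nearer to it, with at most 4.32.

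Set against Ptprc, the markers differed in how far they moved. Healthy libraries held between 11.5 and 121 reads of Cd8a per 100 reads of Ptprc (median 35.6), and cirrhotic ones between 4.15 and 13.6 (median 6.91). For Nkg7 the healthy range was 22.9 to 323 (median 106) and the cirrhotic range 7.84 to 21.8 (median 11.4). These ranges did not overlap, but by a narrow margin between healthy replicate 6 (22.9) and cirrhosis replicate 2 (21.8). Ptprc, the divisor, was itself called higher at cirrhosis, and the ratios are given without a test. Cd3e had a median of 3.57 in healthy and 4.88 in cirrhotic libraries, and Cd4 of 222 and 178, both with overlap. At 2 weeks, where Ptprc was not called, the medians were 0.141 for Cd3e, 1.13 for Cd8a, 1.48 for Nkg7 and 30.6 for Cd4. Within groups Ptprc varied most like Cd53 and Sla (r = 0.955 and 0.941 over 32 libraries).

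**Figure D4:**
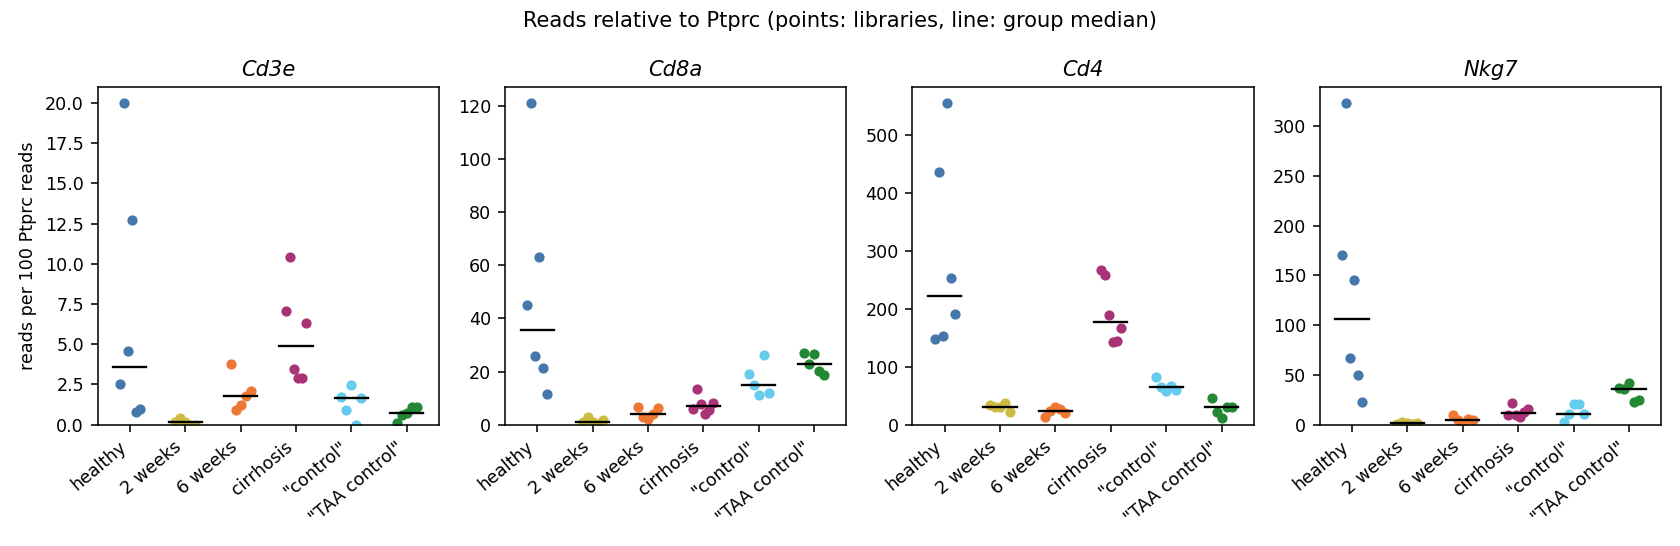
Reads of Cd3e, Cd8a, Cd4 and Nkg7 per 100 reads of Ptprc, with 1 point per library and a line at the group median, on linear axes from 0. Healthy libraries reach 323 for Nkg7 and 121 for Cd8a, cirrhotic libraries at most 21.8 and 13.6, and the 2-week libraries lie near 0 in Cd3e, Cd8a and Nkg7.

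Of the B cell genes, Cd79a fell at every stage and Ms4a1 was near the limit of detection. Cd79a (ENSRNOG00000020125) had 15.6, 14.8, 7.80, 13.2, 4.28 and 3.63 CPM in healthy libraries 1 to 6 and between 1.80 and 5.39 CPM at cirrhosis (median 3.59). The 2-week libraries held at most 0.161 CPM, 12 reads in all, and the 6-week libraries had 1.04, 0.912, 0.1, 0.173 and 0.267 CPM. Healthy replicates 5 and 6 lay inside the cirrhotic range and the other 4 above it. For Cd79a the log2 fold change against healthy was -7.07 at 2 weeks, -4.50 at 6 weeks (adjusted p = 1.1e-05 and 0.000155 from limma) and -1.37 at cirrhosis (standard error 0.438, adjusted p = 0.0166). Without healthy replicates 1 and 2 the value at cirrhosis was -0.93, called at the unadjusted threshold (adjusted p = 0.0865).

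Cd79a shares reads with an annotated copy. The tables list Cd79al (ENSRNOG00000049925) beside it, a name that RefSeq gives as a synonym of Cd79a, and both had counts that were not whole in 30 of 32 libraries. Cd79al had between 40.1 and 69.0 reads per 100 of Cd79a in healthy and between 44.7 and 72.5 in cirrhotic libraries, and it was the gene most like Cd79a within groups (r = 0.917), ahead of Irs3 (0.686) and Cblc (0.664). With both counts added, the log2 fold change at cirrhosis was -1.31 (adjusted p = 0.0257 from limma). Cd79b, whose protein pairs with CD79a in the receptor, had means of 1.44 ± 1.16 CPM in healthy and 0.621 ± 0.408 CPM in cirrhotic libraries (SD, n = 6), and of 0.351 ± 0.22 CPM at 2 weeks and 1.29 ± 0.686 CPM at 6 weeks (SD, n = 5). The 6-week mean of Cd79b was thus close to the healthy one, where that of Cd79a was far below it.

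Ms4a1 (ENSRNOG00000020945) had between 0.0696 and 0.912 CPM in healthy libraries (median 0.247), which is 2 to 27 reads, and between 0.102 and 1.06 CPM at cirrhosis (median 0.582). The groups overlapped, and the log2 fold change at cirrhosis was 0.60 (95% interval -0.82 to 2.02). At 2 weeks the 5 libraries held 3 reads together against 63 in the healthy group, so that the healthy level was 21.4-fold higher (95% interval 7.01 to 107, counting error only). At 6 weeks they held 15. Of 21 further B cell and plasma cell genes, 12 were tested at 2 weeks, of which 11 fell and 1 rose (median log2 fold change -4.60), and at 6 weeks 9 of 12 fell and 1 rose (median -3.79). At cirrhosis 2 of 16 were called higher (Ebf1 and Bank1), Cxcr5 lower and 13 neither (median 0.07). The 4 most abundant were Jchain, which joins polymeric antibodies, the inhibitory receptor Cd22, Fcrla and the IgM receptor gene Fcmr, and none was called at cirrhosis (log2 fold changes 0.69, -0.21, 0.16 and 0.66). Jchain was at 43.5 ± 38.8 CPM in healthy and 60.0 ± 48.3 CPM in cirrhotic libraries (SD, n = 6), and at 0.259 ± 0.274 CPM at 2 weeks (SD, n = 5). Beside these lists, 38.3% of all genes tested fell at 2 weeks and 35.4% at 6 weeks, and 28.8% were higher at cirrhosis. 

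Markers of other liver cells also differed between these groups. The summed level of 10 hepatocyte genes ranged from 1326 to 28977 CPM in healthy libraries, from 158 to 1011 CPM at 2 weeks, from 1467 to 5826 CPM at 6 weeks and from 3286 to 16382 CPM at cirrhosis. That of 9 neutrophil genes was 14.8 ± 15.3 CPM in healthy and 10.8 ± 5.13 CPM in cirrhotic libraries (SD, n = 6), against 0.65 ± 0.434 CPM at 2 weeks and 1.03 ± 1.13 CPM at 6 weeks (SD, n = 5). The sum and the single genes differ at cirrhosis, where 4 of 5 neutrophil genes tested were called higher and 1, Csf3r, lower (median log2 fold change 2.33). Of all genes tested at cirrhosis, 28.8% were called higher and 25.7% lower. The dendritic cell sum was 85.3 ± 10.8 and 110 ± 22.8 CPM in healthy and cirrhotic libraries (SD, n = 6) and 25.1 ± 1.95 and 28.6 ± 5.85 CPM at 2 and 6 weeks (SD, n = 5). The mean sums of macrophage, neutrophil, dendritic, hepatocyte and LSEC markers were thus all lower at 2 and 6 weeks together with the lymphocyte genes. The stellate cell sum was higher, at 443 ± 188 CPM in healthy libraries (SD, n = 6) and 1705 ± 287 CPM at 2 weeks (SD, n = 5), but Reln alone held 1690 CPM of the latter. Of 8 stellate cell genes tested at 2 weeks, 5 fell and 1 rose (median log2 fold change -2.60). Of 4 cholangiocyte genes 2 fell and 1 rose (median -2.04). At 6 weeks 4 of 8 stellate cell genes rose and 3 fell (median 0.58). At that time 2 of 4 cholangiocyte genes rose and 2 fell (median 0.72). The cholangiocyte sum was 9.48 ± 9.13 CPM in healthy libraries (SD, n = 6). It was 80.5 ± 29.3 CPM at 2 weeks and 34.5 ± 41.4 CPM at 6 weeks (SD, n = 5). Of all genes tested, 35.8% rose and 38.3% fell at 2 weeks, and 35.8% rose and 35.4% fell at 6 weeks. The part of cell composition in the changes of the lymphocyte genes was not tested.

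In the TAA experiment, leukocyte, CD8 and cytotoxic transcripts were higher in the group labelled "TAA control" than in the group labelled "control". Of 6 genes tested, 5 were called higher (Ptprc, Cd8a, Cd4, Nkg7 and Gzmb), none lower and Cd79a neither, with a median log2 fold change of 3.01 against 0.03 over all genes. Of all genes tested, 29.4% were called, 13.5% as higher and 15.9% as lower. Ptprc, Cd8a, Nkg7 and Gzmb did not overlap between the groups, as did 35.3% of all genes tested.

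Gzmb was at 0, 0.31, 0.747, 0.105 and 0.469 CPM in the "control" libraries and at 6.67, 5.80, 11.2, 11.2 and 10.1 CPM in the "TAA control" libraries. Its log2 fold change of 5.49 (adjusted p = 0.0003 from limma, standard error 0.785) was the largest of the genes tested here. Nkg7 lay between 0.207 and 5.34 CPM in "control" and between 11.9 and 29.0 CPM in "TAA control" libraries, which is 4.34 on the log2 scale (adjusted p = 0.000442, limma). Cd8a lay between 0.766 and 2.85 CPM and between 8.77 and 23.6 CPM (log2 fold change 3.27, adjusted p = 0.000345 from limma). Ptprc lay between 2.93 and 25.7 CPM and between 32.6 and 118 CPM (2.76, adjusted p = 0.0018 from limma). For these genes each "TAA control" library was above each "control" library.

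The CD3 genes could not be tested in this experiment. Cd3e had 32 reads in the 5 "control" libraries and 90 in the 5 "TAA control" libraries, of which replicates 14 and 15 held 33 each, and Cd3d had 17 and 34. In "TAA control" libraries Nkg7 had between 21.5 and 361 reads per Cd3e read, the last with 1 read of Cd3e, and 4 "control" libraries with any Cd3e read had between 1.5 and 11 (median 7.25). All 21 tested genes of the cytotoxic and NK cell list were called higher in "TAA control" (20 with adjusted p-values), with a median log2 fold change of 3.52. Prf1 was at 2.61 ± 2.86 and 49.0 ± 14.98 CPM and Klrb1a at 4.70 ± 5.11 and 49.2 ± 16.5 CPM (SD, n = 5; log2 fold changes 4.96 and 3.98, adjusted p = 0.000237 and 0.000404 from limma). Of the T cell list, 10 of 18 tested genes were called higher and 2 lower (median 1.30), among them Lat, which was lower (log2 fold change -1.68). Lck was not called (0.07), at 39.7 ± 5.38 CPM in "control" and 41.1 ± 4.26 CPM in "TAA control" libraries (SD, n = 5). These levels stood beside few reads of Cd3e in both groups, and which cells held the Lck reads was not tested. Of the shared leukocyte list, 20 of 26 were higher and none lower.

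Cd4 was called in this experiment with a log2 fold change of 1.35 (adjusted p = 0.0851 from limma). It lay between 1.95 and 14.7 CPM in "control" libraries and at 15.2, 10.3, 6.94, 35.9 and 35.4 CPM in the "TAA control" libraries, so that the groups overlapped. The highest values were those of replicates 14 and 15, and with this pair averaged as 1 library the value was 1.09 and not called. The call was lost in 7 of 10 fits that left out 1 library ("control" 1, 2, 4 or 5, "TAA control" 10, 14 or 15), with values from 0.93 to 1.69. Of 13 Kupffer cell and macrophage genes tested, 4 were called higher and 9 were not, and their summed level ranged from 51.3 to 280 CPM in "control" and from 135 to 686 CPM in "TAA control" libraries. Other cells' markers differed as well. The stellate cell sum ranged from 2039 to 5087 CPM in "control" and from 334 to 524 CPM in "TAA control" libraries, and the hepatocyte sum from 2296 to 5753 CPM and from 665 to 1510 CPM. That of LSEC markers ranged from 23380 to 29013 CPM and from 27444 to 35162 CPM. Their part in the differences of the lymphocyte genes was not tested.

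The B cell gene Cd79a was spread widely within both groups of the TAA experiment. It had 15.7, 1.41, 20.3, 12.9 and 15.5 CPM in the "control" libraries and 1.08, 21.2, 4.78, 1.42 and 1.98 CPM in the "TAA control" libraries. One library in each group lay against its group, replicate 2 of "control" and replicate 12 of "TAA control". The log2 fold change was -1.57 (95% interval -3.47 to 0.33), not called. Without "control" replicate 2 it was -2.25 and called (adjusted p = 0.0116 from limma), and without "TAA control" replicate 12 it was -2.29 and not called (adjusted p = 0.108). In the "control" libraries Ms4a1 had no read at all, and "TAA control" libraries held 5 reads, too few for the test. Cd79b had at most 2.44 reads per 100 of Cd79a in "control" libraries, between 0.154 and 27.5 in "TAA control" libraries, and in the CCl4 model 5.69 to 19.1 in healthy and 1.41 to 24.7 in cirrhotic libraries.

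The 9 genes did not vary as 1 group within the 6 groups of libraries. With log2 CPM centred on group means, Cd8a and Nkg7 had the highest correlation of the pairs computed (r = 0.918 over 32 libraries), followed by Cd3e and Cd8a (0.880) and Cd3e and Nkg7 (0.805). Ptprc was closest to Cd4 (0.800), and Cd79a had r between -0.0218 and 0.359 with the other 6 genes. These are descriptions over libraries that share preparation and depth, with Cd3d and Ms4a1 left out because they had fewer than 0.5 CPM on average. Cd3e was most like Ctsw, Dennd1c and Ptprcap (0.938, 0.885 and 0.885), and Cd8a most like Gfra3, Sh2d2a and Cd247 (0.957, 0.946 and 0.942). Ctsw encodes a protease of cytotoxic lymphocytes and Cd247 the zeta chain of the T cell receptor complex, which NK cells also use.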

How the data were processed

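RNA of rat LSECs was sequenced in 32 poly(A) libraries with a stranded kit. Per the labels and the paper's methods, FastQC, Trim Galore, STAR (genome Rnor_6.0), RSEM and limma were used. The authors deposited RSEM expected counts per library, not normalized, for 32623 genes. Totals ranged from 25646531 to 46464289. Intervals from reads cover counting error only.

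Values were rounded to whole counts for the tests. Genes were kept with filterByExpr, scaled with TMM, and tested with limma-voom on the 2 groups compared, without covariates (R 4.3.3, limma 3.58.1, edgeR 4.0.16, DESeq2 1.42.0). Calls used an unadjusted p under 0.05 and a fold-change above 1.5. Adjusted p-values are Benjamini-Hochberg values over all genes tested in limma, unless edgeR or DESeq2 is named. Printed CPM used TMM factors over all 32 libraries, and correlations used log2(CPM + 0.5). The tests were tested on simulated data. Only well-counted genes were changed there, with less spread between libraries than Nkg7 had in the healthy group. Genes with few reads or a wide spread were thus not covered. Python 3.11.15 with matplotlib 3.10.9 made the figures.

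Members and gene lists were chosen with earlier results of these data known. Named genes are the 9 members, the 4 most abundant genes of each companion list, and the 3 genes most like each member (at least 0.5 CPM on average, Pearson r centred on group means). Cd79b, Cd79al, Stab2, Clec4f and the list genes named at cirrhosis were added after their values were seen. A few genes these rules name are not reported here. Labels do not say that libraries of a group are separate rats, which the study's design text gives. Replicate numbers shared by healthy, 2-week and cirrhotic libraries belong to different rats. Alternatives were adjusted p, no fold-change threshold, edgeR, DESeq2, other scalings and filters, library weights, 1 fit over the CCl4 groups, a replicate block, each library left out and, chosen after seeing the data, healthy replicates 1 and 2 left out together and Cd79a counts added to those of Cd79al. RefSeq promoters are of build GRCr8.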

Additional observations from a re-analysis of the deposited data

Results flagged for a closer look

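A library stood apart from the rest of its group by Dixon's criterion in 5 of the 54 groups of libraries looked at (9 genes in 6 groups). Independent and normally distributed values would give about 2.7. The genes share libraries and some groups hold mainly zeros, so that nothing is concluded from the number of flags. Replicate 12 of the 6-week group stood apart in 3 genes at once, Cd3d (0.808 CPM), Cd3e (2.66 CPM) and Cd8a (4.71 CPM). In replicate 2 of the group labelled "control" Cd79a was at 1.41 CPM, below the other 4 libraries. In replicate 3 of the 2-week group Cd3d was at 0.0277 CPM, a single read in a group otherwise at 0.

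Effects of CCl4 against healthy libraries differed between cirrhosis and the earlier stages in each of the 8 genes that could be tested. The stages were compared directly in limma. Of all genes tested, 64.2% were called at cirrhosis against 6 weeks (34.5% as higher) and 69.7% against 2 weeks (37.8% as higher). Between 6 and 2 weeks Cd8a alone of 4 genes tested was called (adjusted p = 0.119 from limma). The log2 fold change of cirrhosis against 6 weeks was 1.48 for Ptprc, 2.98 for Cd3d, 2.90 for Cd3e, 2.27 for Cd8a, 4.61 for Cd4, 3.18 for Cd79a, 3.34 for Nkg7 and 2.98 for Gzmb. Against 2 weeks it was 1.33 for Ptprc, 5.70 for Cd3d, 6.39 for Cd3e, 3.94 for Cd8a, 3.94 for Cd4, 5.72 for Cd79a, 4.73 for Nkg7 and 5.29 for Gzmb.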

How the results depend on the processing

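The number of called members was the same as reported, or within 1.5 times of it, in 170 of 180 recomputations under another setting. With 1 library left out this held in 139 of 152. Only numbers are compared here, not which genes were called, and a count of 0 that stayed at 0 is included. The count of members higher at cirrhosis than in healthy libraries was 3 as reported and 1 with adjusted p-values, edgeR, DESeq2 or library weights, and from 1 to 4 with a library left out. The count higher at 6 than at 2 weeks was 1 as reported, 0 with adjusted p-values, with a filter of 1 CPM or with library weights, 2 with edgeR, 3 with 1 fit over the CCl4 groups and 5 without a low-count filter, and from 0 to 2 with a library left out. The count lower in "TAA control" was 0, and from 0 to 1 with a library left out. Ptprc changed sign where it was not called. At 2 weeks against healthy it was 0.28 with library-size scaling, 0.34 without healthy replicates 1 and 2, and from -0.37 to 0.27 with 1 library left out. At 6 weeks against healthy these values were 0.16, 0.15 and from -0.63 to 0.0889. At 6 against 2 weeks it was 0.23 with edgeR and DESeq2, and from -0.50 to 0.24 with a library left out. With the replicate block, cirrhosis against healthy gave 2 members higher and 4 lower, with Cd3d (1.26) and Cd3e (1.16) no longer called and Cd8a (-1.44) and Cd4 (0.75) newly called. The block left the counts at 0 higher and 6 lower at 2 weeks against healthy and 8 higher at cirrhosis against 2 weeks. Same-numbered libraries are of different rats. Correlations of their deviations ranged from -0.25 to 0.29 between healthy and cirrhosis, positive for replicates 1 to 3 and negative for 4 to 6. Between healthy and 2 weeks they ranged from 0.03 to 0.20. Whether same-numbered libraries shared a preparation or run cannot be told from these values. No paired fit was run for 6 weeks or the TAA experiment, whose numbers are not shared. Cd3d and Ms4a1 had at most 3 reads per group at 2 weeks, so that depth limits what can be said of them there. The cause of these dependences was not tested.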
